A study of Mus musculus with 16 samples.

Results

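Fabp3, Fabp4, Fabp5 and Cd36 encode proteins that bring long-chain fatty acids into a cell and carry them inside it. The 4 genes were taken by symbol from the deposited gene table of 56980 genes. All 4 were found, and all 4 were among the 12272 genes that passed the filter on low counts and were tested. The values come from primary microglia, the macrophages of the brain, grown from the cortex and hippocampus of newborn Mus musculus. Cells were shaken off mixed glial flasks, a step with no sort or gate named, so other glia can be carried along. The cells were WT or had Grn knocked out (KO), and each genotype was kept for 72 h in 2 uM rimeporide, an inhibitor of sodium-proton exchange, or in the same share of its solvent DMSO. Each of these 4 groups has 4 libraries, 16 in all. Strain, allele and sex are not stated in the labels, which describe 4 biological replicates per genotype. The study was set up around the acidity of lysosomes in cells that lack Grn, and the comparisons ask what loss of Grn, the drug and the pair together did to these 4 transcripts.

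Fatty acid-binding proteins are small cytosolic carriers that hold a fatty acid in a barrel-shaped pocket and take it to membranes, enzymes or the nucleus. Fabp3 is known as the heart form, Fabp4 as the adipocyte and macrophage form, and Fabp5 as the epidermal form, which macrophages also use. Cd36 is a class B scavenger receptor of the plasma membrane that takes up long-chain fatty acids and oxidised lipoproteins and binds thrombospondin. Fabp4 and Cd36 are textbook targets of the nuclear receptor PPAR gamma. Grn encodes progranulin, a secreted protein that is delivered to lysosomes.

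The coding sequences of the 3 carriers are related but not near copies. Over aligned bases Fabp3 and Fabp4 were 63.9% identical, Fabp4 and Fabp5 60.9%, and Fabp3 and Fabp5 56.0%. The 90-base stretch that is most alike without gaps is printed to show how far the 3 genes can be told apart even there. Capitals mark the 51 bases that all 3 share, and the sequences are those of the GENCODE M21 transcripts, from coding base 39 to 128 for Fabp3, 39 to 128 for Fabp4 and 45 to 134 for Fabp5.

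Fabp3: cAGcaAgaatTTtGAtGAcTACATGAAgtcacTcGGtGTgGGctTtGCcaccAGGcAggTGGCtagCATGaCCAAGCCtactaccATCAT
Fabp4: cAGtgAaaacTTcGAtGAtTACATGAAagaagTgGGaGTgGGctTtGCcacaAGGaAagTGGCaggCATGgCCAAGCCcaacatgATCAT
Fabp5: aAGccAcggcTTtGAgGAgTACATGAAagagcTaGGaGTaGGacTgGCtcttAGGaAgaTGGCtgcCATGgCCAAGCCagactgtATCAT

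At the other 39 bases of this stretch the carriers are not all alike, though at some of them a pair of carriers shares the base. The libraries hold 3' tags, which come mostly from the end of a transcript, so this stretch describes the genes and not the reads. Fabp4 lies on the minus strand and Fabp5 on the plus strand of mouse chromosome 3, in a cluster with the order Pag1, Fabp5, Pmp2, Fabp9, Fabp4, Fabp12 and Impa1. Fabp3 lies on the plus strand of chromosome 4 and Cd36 on the minus strand of chromosome 5. A search of GENCODE M21 transcripts found look-alike processed pseudogenes, of at least 90% identity over at least 100 bases, for Fabp3 and Fabp5. The 1 look-alike of Fabp3, Fabp3-ps1, was 99.3% identical over 402 bases and held 30 counts, 0.936% of the Fabp3 count. The 5 look-alikes of Fabp5 held 2.535% of the Fabp5 count, most of it in Gm6166 with 2557 counts and Gm14328 with 1468.5 counts. No look-alike was found for Fabp4 or Cd36. Reads that fit a gene and its look-alike equally well can be split between them, so the levels of Fabp3 and Fabp5 are uncertain by about these shares.

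RefSeq promoters of the GRCm38.p6 build were matched for Fabp3 and Cd36. Fabp4 and Fabp5 had no entry. The pair is printed to show the upstream sequence of a carrier and of the receptor side by side. Each run holds the 250 bases before the start of the gene, 5' to 3' on the gene's own strand, Fabp3 at chr4:130308488-130308737 on the plus strand and Cd36 at chr5:17835897-17836146 on the minus strand. Capitals in the Cd36 run mark matches to AGGTCA, the half-site that PPAR and RXR receptors bind, and to GGGCGG, the GC box.

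Fabp3: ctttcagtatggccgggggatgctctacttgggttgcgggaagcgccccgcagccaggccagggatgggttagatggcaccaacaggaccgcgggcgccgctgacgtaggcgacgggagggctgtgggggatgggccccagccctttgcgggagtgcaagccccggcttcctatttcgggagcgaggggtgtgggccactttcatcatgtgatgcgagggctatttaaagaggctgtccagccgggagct
Cd36: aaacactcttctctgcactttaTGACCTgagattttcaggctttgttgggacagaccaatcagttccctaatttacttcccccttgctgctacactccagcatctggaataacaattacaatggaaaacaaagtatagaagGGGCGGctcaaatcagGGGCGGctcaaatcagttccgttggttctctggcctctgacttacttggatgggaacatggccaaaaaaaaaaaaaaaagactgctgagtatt

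In the 300-base windows searched, which add 50 bases after the start, the Fabp3 promoter had 65% GC and the Cd36 promoter 43%, beside a median of 52.7% over all 32851 promoters. The motifs searched on both strands were the TATA box TATAAA, the half-site AGGTCA, the GC box GGGCGG and, as the core of the antioxidant response element, TGACNNNGC. The Cd36 window held AGGTCA once, on the reverse strand and first reached at position -228 from the start, and GGGCGG in a pair of copies on the forward strand, the first at position -109. The Fabp3 window held none of these letters on either strand. Of all promoters, 13.6% held the TATA box, 16.3% the half-site, 35.7% the GC box and 12.4% the antioxidant core, so matches of this kind are common and describe the letters only.

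Total counts per library ran from 3666413 to 7929499. Grn, the gene that was knocked out, had a mean of 1730 ± 94.1 (SD, n = 4) in WT and 12.6 ± 1.89 in KO cells under DMSO, and 1629 ± 37.0 and 17.5 ± 4.94 under rimeporide, all in CPM (the count scaled to a common library size), which matches the labels. All 10 microglia markers were present, with a summed level of 2362 ± 160 CPM in WT with DMSO, 2158 ± 45.6 in KO with DMSO, 2320 ± 50.5 in WT with rimeporide and 2080 ± 52.3 in KO with rimeporide. Of these 10, 2 fell in KO against WT with DMSO, Cx3cr1 (log2 fold change -0.61 ± 0.16, edgeR adjusted p = 0.00886) and Aif1 (-0.56 ± 0.13, edgeR adjusted p = 0.0031), 4 fell with rimeporide and none rose. Over all genes tested 8.56% fell with DMSO and 2.32% with rimeporide. In every library a score was computed as the mean centred log2 CPM of 933 processed pseudogenes. What property of a library this score follows was not tested. The score was 0.12 in KO with DMSO replicate 2 and -1.01 to -0.54 in the other KO libraries with DMSO, so that replicate stands apart from its group. In the other 12 libraries the score was -0.14 to 0.59. That range holds KO with DMSO replicate 2, and the other KO libraries with DMSO lie below it. Replicates 1, 3 and 4 of KO with DMSO had total counts of 7929499, 6659436 and 6660582, above every other library, and replicate 2 had 4422263. Results are given with and without KO with DMSO replicate 2 where the call changes.

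Cd36 was one of the most abundant transcripts of these cells, and Fabp5 was not far behind. CPM here is a library's count scaled by its total count and a TMM factor. A 3' tag library yields about 1 tag per transcript whatever its length, so CPM is compared between genes without division by length. By mean CPM in WT with DMSO, Cd36 ranked 10, Fabp5 48, Fabp4 1528 and Fabp3 4810 among all genes. On that scale the level of Cd36 was 168 times that of Fabp3, the level of Fabp5 55.9 times and the level of Fabp4 3.90 times. In KO with DMSO the ranks were 20 for Cd36, 31 for Fabp5, 714 for Fabp4 and 3210 for Fabp3.

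Without Grn, the 3 carriers were higher and the receptor was lower. In KO against WT with DMSO, Fabp4 was 2.11-fold, Fabp3 1.78-fold and Fabp5 1.38-fold higher, while Cd36 was 1.53-fold lower. All 4 members passed the test, beside 18.6% of all genes tested, 10.1% in the higher and 8.56% in the lower direction. The test is edgeR's quasi-likelihood test with Benjamini-Hochberg adjustment over all 12272 genes, called at an adjusted p under 0.05. In all 4 members the WT and KO libraries did not overlap, a separation that 16.6% of all genes tested showed. In bulk cultures, fewer cells of a type and less RNA per cell cannot be told apart.

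Fabp4, the adipocyte and macrophage carrier, stood at 107.5, 114.7, 118.6 and 137.1 CPM in the WT libraries with DMSO. The KO libraries with DMSO stood at 271.5, 215.7, 268.5 and 251.4 CPM. Every KO library was well above the highest WT library, and replicate 2 was the lowest of the KO libraries. The log2 fold change was 1.07 ± 0.095 (SE; edgeR adjusted p = 2.97e-08). With rimeporide, WT libraries stood at 128.2, 145.4, 125.8 and 149.0 CPM and KO libraries at 207.1, 211.4, 247.3 and 222.0 CPM. The groups were again apart, as in 12.6% of all genes tested, with a log2 fold change of 0.70 ± 0.095 (edgeR adjusted p = 2.12e-05) that is a 1.62-fold higher level in KO. Beside it, 7.46% of all genes tested passed in KO against WT with rimeporide, and 5.14% of all genes tested were higher.

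Fabp5, the carrier that makes up most of the carrier tags, stood at 1740, 1742, 1765 and 1609 CPM in WT with DMSO and at 2391, 2316, 2524 and 2242 CPM in KO with DMSO. The lowest KO library lay above the highest WT library, and the log2 fold change was 0.47 ± 0.070 (edgeR adjusted p = 4.84e-05). With rimeporide the WT libraries stood at 1749, 1954, 1705 and 1669 CPM and the KO libraries at 2557, 2607, 2564 and 2214 CPM. The groups again did not overlap, and the log2 fold change of 0.49 ± 0.070 (edgeR adjusted p = 3.93e-05) was close in size to that in DMSO. The difference between those genotype effects was 0.02 ± 0.099 on the log2 scale (edgeR adjusted p = 0.932), which leaves room for a difference of either sign.

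Fabp3, the heart-type carrier and the scarcest of the 3, stood at 33.2, 27.8, 27.7 and 34.0 CPM in WT with DMSO. In KO with DMSO it stood at 58.8, 40.0, 54.6 and 64.6 CPM. All KO libraries were higher, and KO replicate 2, whose pseudogene score stands apart from its group, was nearest to WT. The log2 fold change was 0.83 ± 0.14 (edgeR adjusted p = 0.000151), and 0.93 without that replicate (edgeR adjusted p = 5.35e-06). With the pseudogene score as a covariate the log2 fold change was 0.40 and no longer passed (edgeR adjusted p = 0.0532). With rimeporide the WT libraries stood at 32.6, 26.5, 24.4 and 31.8 CPM and the KO libraries at 35.4, 33.4, 28.7 and 33.9 CPM. These groups overlapped, and the log2 difference of 0.18 ± 0.14 did not pass (edgeR adjusted p = 0.593), with a 95% interval from -0.12 to 0.48. Fabp3 shares its locus with Zcchc17 on the opposite strand. Zcchc17 was at 16.7 ± 2.74 CPM in WT with DMSO and 23.1 ± 2.23 CPM in KO with DMSO (log2 fold change 0.46 ± 0.14, edgeR adjusted p = 0.0223), and the labels do not say whether counting used the strand. The part of reads from that partner in the Fabp3 result was not tested.

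Cd36, the fatty acid and scavenger receptor, stood at 4284, 5966, 5492 and 4872 CPM in WT with DMSO and at 2895, 3768, 3675 and 3107 CPM in KO with DMSO. The highest KO library lay below the lowest WT library. The log2 fold change was -0.62 ± 0.093 (edgeR adjusted p = 4.74e-05). With rimeporide the WT libraries stood at 5083, 5345, 5949 and 5486 CPM and the KO libraries at 4012, 4195, 4363 and 4320 CPM. The groups were again apart. Cd36 was 1.29-fold lower in KO (log2 fold change -0.37 ± 0.093, edgeR adjusted p = 0.0115), in a comparison where 2.32% of all genes tested passed in the lower direction. The microglia markers Cx3cr1 and Aif1 moved with Cd36 in DMSO, and the part of fewer or less typical microglia in its fall was not tested. Averaged over both treatments, KO against WT gave log2 fold changes of 0.89 ± 0.067 for Fabp4 (edgeR adjusted p = 8.57e-10), 0.48 ± 0.050 for Fabp5 (edgeR adjusted p = 1.29e-07), 0.51 ± 0.10 for Fabp3 (edgeR adjusted p = 0.000692) and -0.49 ± 0.066 for Cd36 (edgeR adjusted p = 4.77e-06). In that comparison 15.6% of all genes tested passed, 9.84% higher and 5.8% lower, and the 8 KO libraries lay wholly above the 8 WT libraries for Fabp4 and Fabp5, which held for 3.63% of all genes tested.

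**Figure D1:**
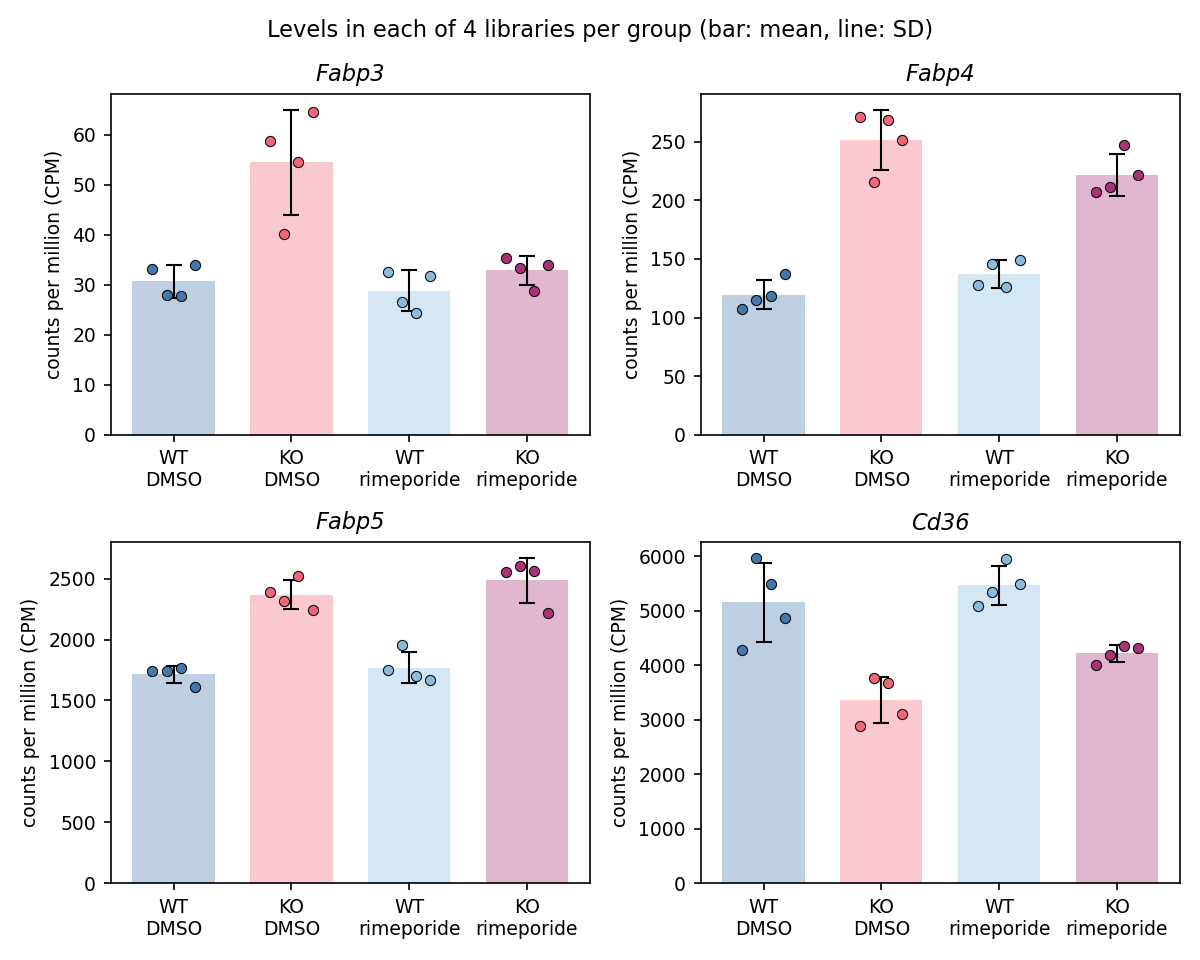
Levels of Fabp3, Fabp4, Fabp5 and Cd36 in CPM on linear axes that start at 0, by group, with 1 point for each of 4 libraries, bars for the mean and lines for the SD. KO bars are above WT bars in DMSO for the 3 carriers and below them for Cd36, and Fabp3 in KO with rimeporide (32.9 ± 2.87 CPM) sits beside the WT groups (30.7 ± 3.36 and 28.8 ± 4.03 CPM).

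In WT cells none of the 4 members passed in rimeporide against DMSO, where 0% of all genes tested passed with edgeR, 676 genes had an unadjusted p under 0.05 and DESeq2 called 6 genes. The log2 differences were -0.09 ± 0.14 for Fabp3, 0.20 ± 0.096 for Fabp4, 0.05 ± 0.070 for Fabp5 and 0.08 ± 0.092 for Cd36. The widest of these, that of Fabp4, had a 95% interval from -0.0038 to 0.40 (edgeR adjusted p = 0.915). No member had groups that did not overlap in this comparison, a pattern that 3.33% of all genes tested showed.

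In KO cells Fabp3 was lower and Cd36 higher with rimeporide than with DMSO. Fabp3 was 1.67-fold lower (log2 fold change -0.74 ± 0.14, edgeR adjusted p = 0.00369), and its highest library with the drug, at 35.4 CPM, lay below its lowest with DMSO, at 40.0 CPM. Cd36 was 1.26-fold higher (log2 fold change 0.33 ± 0.093, edgeR adjusted p = 0.0196), and its lowest library with the drug, at 4012 CPM, lay above its highest with DMSO, at 3768 CPM. With the drug, the KO libraries of both members overlapped those of WT with DMSO. For Fabp3 they ran from 28.7 to 35.4 CPM beside 27.7 to 34.0 CPM, and for Cd36 from 4012 to 4363 CPM beside 4284 to 5966 CPM, a difference that was not tested. For Cd36 only the lowest WT library, at 4284 CPM, lay within the KO range. The Cd36 means were 4222 ± 157 CPM in KO with the drug and 5153 ± 733 CPM in WT with DMSO. In rimeporide against DMSO in KO, 14.8% of all genes tested passed, 8.43% higher and 6.35% lower, and 13% had groups that did not overlap. Fabp4 in KO cells averaged 252 ± 25.6 CPM under DMSO and 222 ± 18.1 CPM under the drug (log2 fold change -0.18 ± 0.093, edgeR adjusted p = 0.198), and Fabp5 at 2368 ± 120 and 2486 ± 182 CPM (log2 fold change 0.07 ± 0.070, edgeR adjusted p = 0.551). Neither of these passed with all 16 libraries.

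The call of Fabp3 in the drug comparison of KO held when any 1 library was left out (log2 fold changes of -0.86 to -0.66), while those of Cd36 and Fabp4 depend on single libraries. Without KO with DMSO replicate 2, the log2 fold changes were -0.86 for Fabp3 (edgeR adjusted p = 2.87e-05), 0.38 for Cd36 (edgeR adjusted p = 0.00372) and -0.25 for Fabp4, which then passed (edgeR adjusted p = 0.0417). Cd36 no longer passed without KO with DMSO replicate 1 (edgeR adjusted p = 0.0904), without KO with DMSO replicate 4 (edgeR adjusted p = 0.0798) or without KO with rimeporide replicate 3 (edgeR adjusted p = 0.0708). The pseudogene score was -1.01 to 0.12 in KO with DMSO and 0.13 to 0.59 in KO with rimeporide, so it separates these groups just as the drug does. With the score as a covariate, the log2 fold changes were -0.18 for Fabp3 and 0.08 for Cd36, neither passed, and 1 gene passed of all those tested. The score and the drug cannot be told apart in these KO libraries. Total counts averaged 6417945 in KO with DMSO and 4545555 in KO with rimeporide, and the part of depth in these differences was not tested.

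The test of whether the drug acted differently in the genotypes gave a log2 value of -0.66 ± 0.20 for Fabp3, with an unadjusted p of 0.00332 and an edgeR adjusted p of 0.104. For Fabp4 the value was -0.38 ± 0.13 (edgeR adjusted p = 0.144) and for Cd36 0.24 ± 0.13 (edgeR adjusted p = 0.323). No member passed in this fit, which has all libraries, the filter on low counts and no replicate block, and 0.0163% of all genes tested passed. Without KO with DMSO replicate 2 both Fabp3, at -0.77 (edgeR adjusted p = 0.0058), and Fabp4, at -0.44 (edgeR adjusted p = 0.0209), passed, as did 1497 genes in all. Fabp3 also passed with no filter on low counts (edgeR adjusted p = 0.0335) and with the replicate number as a block (edgeR adjusted p = 0.0258). With the pseudogene score as a covariate the values of Fabp3 and Fabp4 kept their sign but lay nearer to no difference. They were -0.09 for Fabp3 and -0.19 for Fabp4 (edgeR adjusted p = 0.998 for both). Those of Cd36 and Fabp5 changed sign, from 0.24 to -0.0067 for Cd36 and from 0.02 to -0.033 for Fabp5. DESeq2 called 276 genes and gave Fabp3 an adjusted p of 0.0583. So whether the drug effect on Fabp3 differs between genotypes was called or not called depending on 1 library, on the filter and on the block. With the covariate it was not called, as in the main fit, and its size was smaller.

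**Figure D2:**
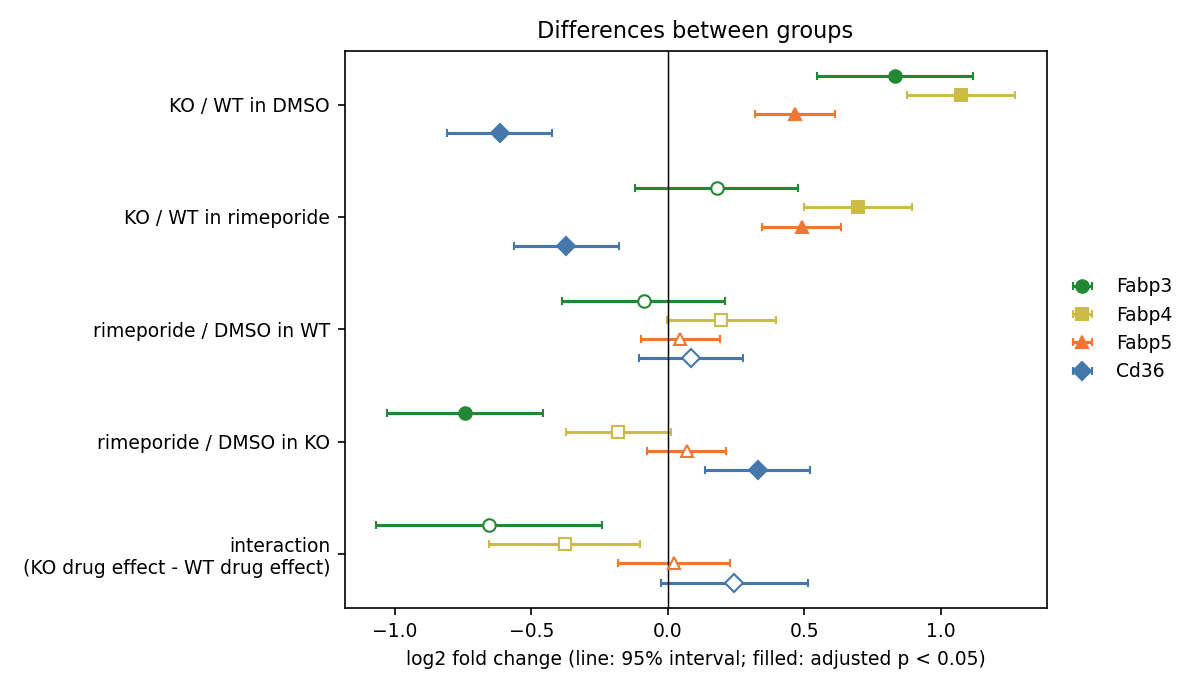
Log2 fold changes of Fabp3, Fabp4, Fabp5 and Cd36 in 5 comparisons, with lines for 95% intervals and filled symbols where the edgeR adjusted p was under 0.05. The carriers lie to the right of 0 and Cd36 to the left in both genotype comparisons. With rimeporide, Fabp3 (0.18) did not pass, and its interval from -0.12 to 0.48 crosses 0. In rimeporide against DMSO in KO, Fabp3 lies to the left (-0.74) and Cd36 to the right (0.33).

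Averaged over genotypes, rimeporide against DMSO gave log2 fold changes of -0.42 ± 0.10 for Fabp3 (edgeR adjusted p = 0.0293) and 0.21 ± 0.065 for Cd36 (edgeR adjusted p = 0.0691), and 0.01 ± 0.067 for Fabp4 and 0.06 ± 0.050 for Fabp5. Only Fabp3 passed, in a comparison where 3.66% of all genes tested passed, 2.03% higher and 1.63% lower, and its call was lost when any 1 of 7 libraries was left out.

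The order of the groups differed from gene to gene. For Fabp4 it ran from WT with DMSO (119 ± 12.6 CPM) through WT with rimeporide (137 ± 11.8 CPM) and KO with rimeporide to KO with DMSO, and only the step between the genotypes passed a test. For Fabp5 it ran from WT with DMSO (1714 ± 70.7 CPM) through WT with rimeporide (1769 ± 127 CPM) and KO with DMSO to KO with rimeporide, and neighbours within a genotype did not differ beyond their spread. For Fabp3 the groups WT with rimeporide, WT with DMSO and KO with rimeporide had overlapping libraries, and KO with DMSO stood alone above them. For Cd36 the order was KO with DMSO (3361 ± 426 CPM), KO with rimeporide (4222 ± 157 CPM), WT with DMSO (5153 ± 733 CPM) and WT with rimeporide (5466 ± 363 CPM), and each of the last 3 groups overlapped the next.

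Added together, the 3 carriers gave 1864 ± 57.5 CPM in WT with DMSO, 2675 ± 136 in KO with DMSO, 1935 ± 130 in WT with rimeporide and 2740 ± 182 in KO with rimeporide. Fabp5 held 91.9% of these tags in WT with DMSO and 88.6% in KO with DMSO, so the sum mostly follows Fabp5. The share of Fabp4 was 6.43% in WT with DMSO and 9.41% in KO with DMSO, and that of Fabp3 1.65% and 2.04%. With rimeporide the shares of Fabp4 were 7.10% in WT and 8.13% in KO, and those of Fabp3 1.5% and 1.20%. For each carrier tag there were 2.76 ± 0.370 Cd36 tags in WT with DMSO, 1.26 ± 0.167 in KO with DMSO, 2.84 ± 0.310 in WT with rimeporide and 1.55 ± 0.141 in KO with rimeporide. Even the WT library with the smallest ratio, at 2.28, lay above the highest KO library, at 1.75. No such ratio was computed for other genes.

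**Figure D3:**
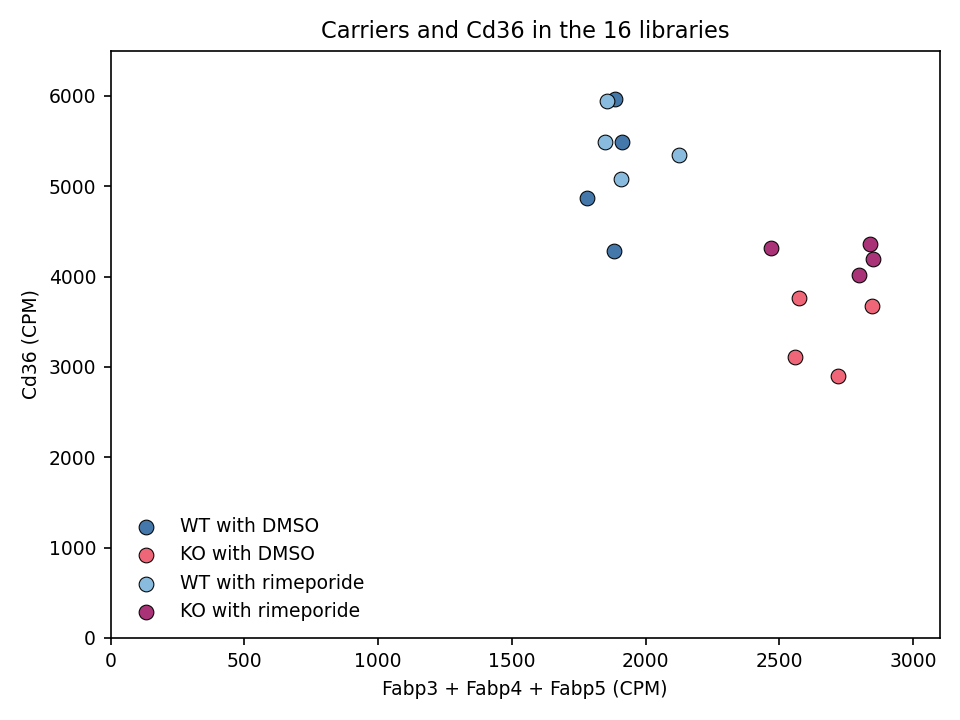
Sum of Fabp3, Fabp4 and Fabp5 (horizontal axis, CPM) against Cd36 (vertical axis, CPM) in each of 16 libraries, coloured by group, with both linear axes starting at 0. WT libraries lie upper left, with sums of 1780 to 2126 CPM, and KO libraries lower right, with sums of 2470 to 2852 CPM, and no library of one genotype falls among those of the other.

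Markers of other brain cells also differed between the genotypes. The summed level of 12 astrocyte markers ran from 16.6 to 32.3 CPM in WT with DMSO, 83.9 to 112.8 in KO with DMSO, 21 to 35.7 in WT with rimeporide and 74.9 to 100.8 in KO with rimeporide. The summed level of 10 neuron markers ran from 7.54 to 14.9 CPM, 46.6 to 83.8, 7.94 to 14.6 and 49.7 to 71.9 CPM in the same groups. Endothelial markers, 9 in number, summed to 31.4 to 48.9 CPM in WT with DMSO and 60.8 to 74.5 CPM in KO with DMSO, and of these Tek and Cldn5 were at 0 in KO with DMSO. The 11 oligodendrocyte lineage markers summed to 73.5 to 124.3 and 100.2 to 112.4 CPM in WT and KO with DMSO, with Mog at 0 in KO with DMSO, and to 67.6 to 80.8 and 87.9 to 119.0 CPM in WT and KO with rimeporide. Of the 8 oligodendrocyte lineage markers tested in KO against WT, 4 rose and 1 fell with DMSO and 5 rose with rimeporide, among them Olig1 (log2 fold change 4.46 ± 0.45 with DMSO, edgeR adjusted p = 1.74e-07). Of the astrocyte markers 7 of 10 tested rose with DMSO and 6 with rimeporide, and of the neuron markers 5 and 3 of 5 tested. Averaged over treatments, 7 astrocyte markers rose and 1 fell. Over all genes tested 10.1% were called higher and 8.56% lower with DMSO, and 5.14% and 2.32% with rimeporide. In WT and KO with DMSO the 8 fibroblast and mural markers summed to 9.64 to 17 and 7.09 to 14.6 CPM. The 8 adipocyte markers, which bear on Fabp4, summed to at most 1.98 CPM in any library. Astrocytes and neurons can also express Fabp3, Fabp5 and Fabp7, and the part of such cells in the higher levels of the carriers in KO was not tested.

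Of the other genes of the family, which carry fatty acids, bile acids or retinoids, hardly any were present. The list names 13, of which 12 are in the table and only Fabp7 was tested. Fabp7, the brain form found in radial glia and astrocytes, was at 6.13 ± 3.37 CPM in WT with DMSO, 15.1 ± 3.32 in KO with DMSO, 5.50 ± 1.73 in WT with rimeporide and 10.6 ± 1.77 in KO with rimeporide. It was higher in KO with DMSO (log2 fold change 1.37 ± 0.28, edgeR adjusted p = 0.00119) and with rimeporide (0.97 ± 0.29, edgeR adjusted p = 0.0447). The call with rimeporide was lost without any 1 of 8 libraries, namely WT with DMSO replicate 1, KO with DMSO replicate 1, WT with rimeporide replicates 1, 2 and 3 and KO with rimeporide replicates 2, 3 and 4, and with the pseudogene score as a covariate. Fabp2, Fabp6, Fabp9 and Rbp7 had no count in any library, Fabp1 had 1, Rbp2 had 1, Pmp2 1.5, Fabp12 6, Crabp2 7 and Crabp1 22 counts over all 16 libraries. Of the 9 other genes listed around the chromosome 3 cluster, 4 were tested, and none passed in KO against WT with DMSO or with rimeporide. Their average log2 values were -0.24 ± 0.095 for Pag1, 0.13 ± 0.071 for Impa1, -0.22 ± 0.13 for Zfand1 and -0.13 ± 0.079 for Snx16. Pag1, a membrane adaptor gene next to Fabp5, fell in KO with the drug (log2 fold change -0.52 ± 0.14, edgeR adjusted p = 0.0133), where neither Fabp4 nor Fabp5 passed. It was the 1 of these 4 neighbours that passed there, beside 6.35% of all genes tested that fell. That count became 0 to 2 when 1 library was left out.

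Genes that bring fatty acids in and activate them held some that rose and more that did not pass. Of 22 listed, 17 were tested, and in KO against WT with DMSO 4 rose, 1 fell and 12 did not pass. With rimeporide 4 rose, none fell and 13 did not pass. Over all genes tested 10.1% were called higher and 8.56% lower with DMSO, and 5.14% and 2.32% with rimeporide, which holds for the lists below too. The list's median log2 fold change was 0.04 in DMSO and -0.07 with rimeporide, beside 0.0088 and 0.011 over all genes tested. Dbi, the acyl-CoA-binding protein, was at 668 ± 21.2 CPM in WT with DMSO and 881 ± 60.7 in KO with DMSO, and rose in both treatments (log2 fold changes 0.40 ± 0.073 and 0.28 ± 0.073, edgeR adjusted p = 0.000496 and 0.0162). Acsl3, an acyl-CoA synthetase of lipid droplets and the endoplasmic reticulum, was at 35.6 ± 3.52 and 77.7 ± 5.30 CPM in WT and KO with DMSO and at 35.7 ± 3.23 and 67.3 ± 1.87 CPM with rimeporide. The lowest KO library, at 65.5 CPM, lay above the highest WT library, at 38.4 CPM. Over both treatments 3.63% of all genes tested lay wholly higher in KO. The scarce synthetases Acsbg1, at 0.305 ± 0.228 and 3.23 ± 0.287 CPM, and Acsl6, at 0.138 ± 0.159 and 1.40 ± 0.747 CPM in WT and KO with DMSO, rose as well, and both are best known from brain, Acsbg1 from glia and Acsl6 from neurons and glia. Acot1, a thioesterase, averaged -1.05 ± 0.28 on the log2 scale over treatments (edgeR adjusted p = 0.0106) but passed in neither treatment alone.

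Of the receptors that control Fabp4 and Cd36 in other cells, none passed between the genotypes. Of 12 PPAR and RXR receptors and coactivators, 10 were tested, and the 1 that rose in each genotype comparison was the coactivator Ppargc1a. The medians were 0.05 in DMSO and -0.09 with rimeporide. Pparg stood at 20.0 ± 2.79 CPM in WT with DMSO, 20.3 ± 2.74 in KO with DMSO, 19.8 ± 4.67 in WT with rimeporide and 23.9 ± 3.12 in KO with rimeporide. Its average log2 difference of 0.15 ± 0.11 did not pass (edgeR adjusted p = 0.427). Ppargc1a, a coactivator of mitochondrial genes, was at 0.156 ± 0.182 CPM in WT with DMSO and 5.04 ± 2.33 CPM in KO with DMSO, a rise that passed (edgeR adjusted p = 3.58e-06) from a level of few tags. Ppard, Ncoa2 and Rxrb averaged 0.30 ± 0.17, -0.14 ± 0.077 and -0.17 ± 0.12 on the log2 scale and did not pass.

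Most of the listed PPAR target genes that passed fell in KO, as Cd36 did. Fabp4, also a PPAR gamma target, was higher in KO, and neither of these members is on the list. Of 27 listed, 21 were tested. In KO against WT with DMSO 1 rose, 4 fell and 16 did not pass, and with rimeporide 1 rose, 5 fell and 15 did not pass, beside 8.56% and 2.32% of all genes tested that fell. The medians were -0.17 and -0.18, beside 0.0088 and 0.011 over all genes. Plin2, the coat protein of lipid droplets, was at 2134 ± 139 CPM in WT with DMSO, 1366 ± 82.2 in KO with DMSO, 2050 ± 53.9 in WT with rimeporide and 1216 ± 90.5 in KO with rimeporide. Its average log2 fold change was -0.70 ± 0.050 (edgeR adjusted p = 2.78e-10), in a comparison where 5.8% of all genes tested passed in the lower direction. Angptl4, a secreted inhibitor of lipoprotein lipase, fell by 1.52 ± 0.22 on the log2 scale in DMSO (edgeR adjusted p = 3.95e-05) and by 1.62 ± 0.25 with rimeporide (edgeR adjusted p = 8.41e-05). Cpt1a, which sends fatty acids into mitochondria, fell by 0.65 ± 0.10 and 0.68 ± 0.11 on the log2 scale (edgeR adjusted p = 0.000115 and 0.000125). Ucp2, a carrier of the inner mitochondrial membrane, averaged -0.40 ± 0.079 (edgeR adjusted p = 0.00068). The 1 that rose, Fads2, a desaturase of polyunsaturated fatty acids, was at 3.11 ± 0.673 CPM in WT and 17.1 ± 0.269 CPM in KO with DMSO. Fads2 fell in KO with the drug (log2 fold change -0.62 ± 0.21, edgeR adjusted p = 0.0476). Of the 21 tested, 1 rose and 2 fell in that comparison, beside 8.43% and 6.35% of all genes tested. The 3 that passed became 0 to 4 when 1 library was left out.

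Mitochondrial beta-oxidation, where fatty acids are burned, had counts close to those over all genes. Of 20 listed genes 19 were tested, and in KO against WT 1 rose and 3 fell with DMSO and 1 rose and 1 fell with rimeporide, with medians of -0.06 and -0.08. That is 4 of 19 and 2 of 19 that passed, beside 18.6% and 7.46% of all genes tested. Acadl, the long-chain acyl-CoA dehydrogenase, rose by 0.40 ± 0.093 on the log2 scale in DMSO (edgeR adjusted p = 0.00443). Acaa2, the last thiolase of the cycle, fell by 0.62 ± 0.15 on the log2 scale in DMSO (edgeR adjusted p = 0.00573). Eci2, an enoyl-CoA isomerase, averaged -0.35 ± 0.12 and did not pass (edgeR adjusted p = 0.0521). The scarce Cpt1c, a brain member of the Cpt1 family, averaged 1.98 ± 0.47 (edgeR adjusted p = 0.00388) at 1.12 ± 0.927 CPM in WT with DMSO and 3.00 ± 0.785 CPM in KO with DMSO.

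Around Cd36 itself, 15 relatives and partners were listed and all 15 were tested. In KO against WT 2 rose and 1 fell with DMSO, and none rose and 2 fell with rimeporide. Lyn, a kinase that signals from Cd36, fell in both treatments, from 353 ± 14.8 to 268 ± 7.50 CPM with DMSO and from 315 ± 18.8 to 245 ± 16.1 CPM with rimeporide (average log2 fold change -0.38 ± 0.050, edgeR adjusted p = 4.91e-06). Cd9, a tetraspanin found with Cd36, went the other way in DMSO, from 423 ± 51.7 to 659 ± 95 CPM (log2 fold change 0.64 ± 0.098, edgeR adjusted p = 5.51e-05). Tlr6, a receptor that pairs with Tlr4 under Cd36, rose in DMSO by 0.64 ± 0.17 (edgeR adjusted p = 0.00943), and Thbs1, a ligand of Cd36, fell by 0.50 ± 0.13 on the log2 scale with rimeporide (edgeR adjusted p = 0.0132). Zdhhc5, an enzyme that palmitoylates Cd36, averaged -0.25 ± 0.11 and did not pass (edgeR adjusted p = 0.129). In KO with the drug 1 of the 15 rose and 5 fell, beside 8.43% and 6.35% of all genes tested. The 6 that passed became 2 to 7 when 1 library was left out, lowest without KO with DMSO replicate 1 or 4, and 0 with the pseudogene score as a covariate. Those that fell were Scarb2, Cd9, Tlr4, Tlr6 and Thbs1 and the one that rose was Fyn, with Scarb2, Tlr4 and Fyn named after their values were seen. Their log2 fold changes ran from -0.60 ± 0.17 for Tlr6 to 0.52 ± 0.12 for Fyn.

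Some other scavenger receptors fell in KO as well. Of 13 listed 8 were tested, and in KO against WT 1 rose and 3 fell with DMSO, while none rose and 3 fell with rimeporide, beside 8.56% and 2.32% of all genes tested that fell. The medians were -0.11 and -0.19. Marco, a class A receptor of macrophages, fell by 1.33 ± 0.33 on the log2 scale with DMSO (edgeR adjusted p = 0.00593) and by 1.58 ± 0.38 with rimeporide (edgeR adjusted p = 0.00819). Msr1, another class A receptor, fell by 0.52 ± 0.090 with rimeporide (edgeR adjusted p = 0.000318), and its -0.17 ± 0.089 in DMSO did not pass (edgeR adjusted p = 0.204). Stab1 and Cxcl16, receptors for modified lipoproteins or oxidised lipid, fell by 0.41 ± 0.086 and 0.44 ± 0.11 on the log2 scale with DMSO (edgeR adjusted p = 0.00153 and 0.00626). Stab2, the relative of Stab1, rose by 0.78 ± 0.20 with DMSO (edgeR adjusted p = 0.00908). In KO with the drug Stab1 rose by 0.37 ± 0.086 (edgeR adjusted p = 0.00761), as Cd36 did. Msr1 fell there by 0.28 ± 0.089 on the log2 scale (edgeR adjusted p = 0.0408), and the other 6 tested receptors did not pass. Over all genes tested 8.43% rose and 6.35% fell in that comparison. The 2 that passed became 1 to 3 when 1 library was left out, and 0 to 3 over all alternatives.

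**Figure D4:**
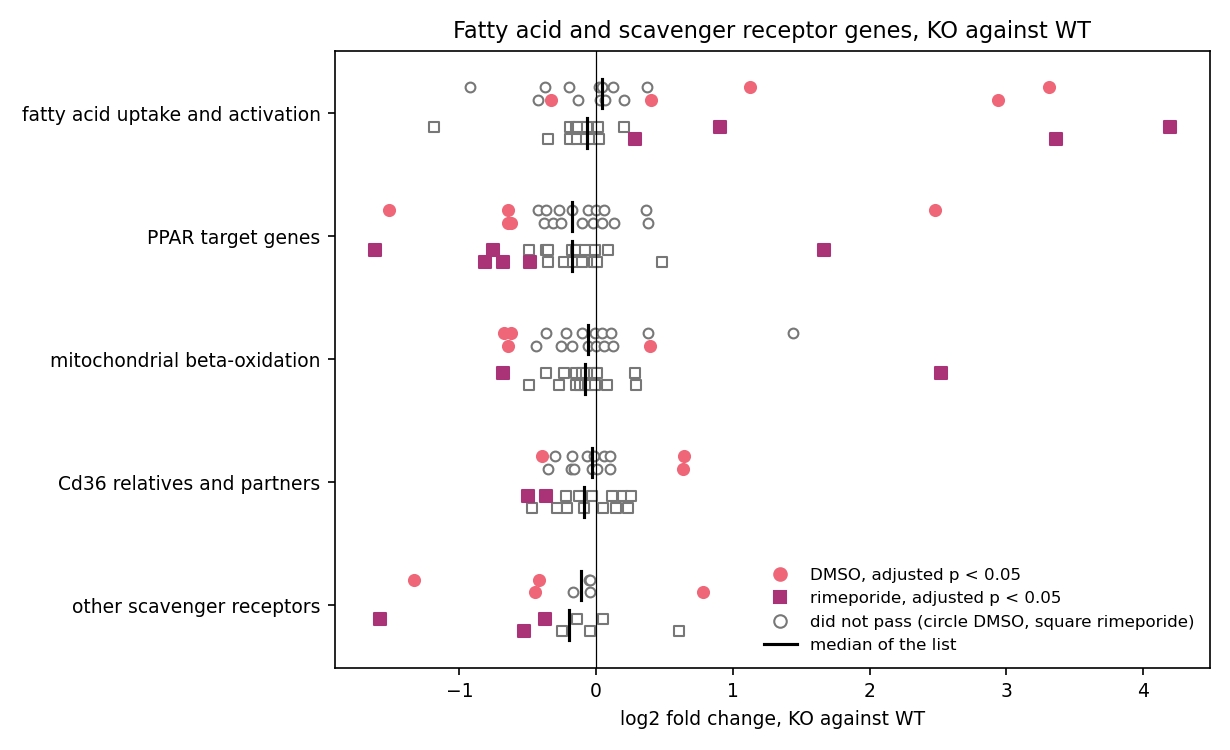
Log2 fold changes of KO against WT (horizontal axis) for the tested genes of 5 lists (rows), circles for DMSO and squares for rimeporide, coloured where the edgeR adjusted p was under 0.05, with a black line at each list's median. Most genes lie near 0 and the medians run from -0.19 to 0.04, while single genes such as Acsbg1 (3.32 in DMSO) and Marco (-1.33 in DMSO) lie far out.

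The genes whose levels over the 16 libraries ran most like each member were named from 9040 candidates by Pearson correlation of log2 CPM. These are descriptions, since all genes share the same libraries and the same 4 groups. For Fabp3 they were Cks1b (r = 0.97), Sfpq (0.96), Pgap1 (0.96), Pim3 (0.96) and Slc30a1 (0.95), and r was 0.96 to 0.99 within the 8 KO libraries and 0.60 (Pgap1) to 0.90 (Cks1b) within the 8 WT libraries. For Fabp4 they included Hmgcs1 (0.99), Atp6v0d2 (0.97), Dtna (0.97) and Gfap (0.97). Hmgcs1, an enzyme of cholesterol synthesis, kept an r of 0.89 within WT and 0.92 within KO. For Fabp5 they were Scd2 (0.97), Sox2 (0.96), Rtn1 (0.96), Mapt (0.95) and Nr2f1 (0.95). Within WT the r of Mapt with Fabp5 was 0.046 and within KO that of Nr2f1 was 0.067, far below the r over all 16 libraries. Sox2, Mapt and Gfap are known from neural cells other than microglia. For Cd36 they included Nap1l1 (0.95), Jmjd1c (0.93), Adam8 (0.93) and Actb (0.92), with an r within WT and KO of 0.90 and 0.87 for Nap1l1 but 0.34 and 0.92 for Adam8.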

How the data were processed

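Polyadenylated RNA of 16 libraries was read as single-end 3' tags with molecular identifiers, per the labels' protocols. The labels do not say whether duplicates were removed before counting. Expected counts per gene, which the authors made with Salmon (version not stated) on GRCm39 per the submitters' processing notes, were the input. A second deposited table held the authors' log2 CPM, whose values correlated across genes with those computed here at 0.9999 or more in each library and were not used further. Of the counts 12.0% were not whole to a tolerance of 0.001, and they were rounded for the tests.

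Genes were kept by filterByExpr (minimum count 10, minimum total 15). Counts were scaled by TMM and fitted with edgeR 4.0.16 in R 4.3.3, with limma 3.58.1 loaded, with 1 mean per group and 12 residual and 10.8 prior degrees of freedom, over 7 comparisons (KO against WT and rimeporide against DMSO, each within and averaged, and their interaction). Standard errors are the size of the log2 fold change divided by the root of F, and 95% intervals use the t distribution. The steps were tested on simulated data first. Libraries were taken as independent, which the labels do not settle, so p-values measure the spread between libraries under that reading only. Biotypes and transcripts came from GENCODE M21, look-alikes from blastn 2.17.0 and promoters from RefSeq GRCm38.p6, a build other than the authors'.

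Alternatives were DESeq2 1.42.0, its size factors, no filter, a replicate block, fits of the compared groups alone, the pseudogene score as a covariate, each library left out and, chosen after the data were seen, look-alike counts added to their gene. The members and lists were chosen with earlier results of these data known. Named are the members, Grn, up to 5 tested genes per list with the smallest p in the average genotype comparison, and the 5 genes most like each member with a mean of at least 5 CPM; a few genes that this rule or the lists name are not reported here. Intervals cover counting and library spread only as far as these 16 libraries show it.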

Additional observations from a re-analysis of the deposited data

Results flagged for a closer look

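A library lay far from the other 3 of its group in 5 of 44 sets of 4 values, where the gap to the nearest library, divided by the whole range, passed Dixon's 95% critical value. Chance gives about 1 in 20, or 2.2 of 44. Fabp5 in WT with DMSO had a gap of 0.843, with replicate 4 low at 1609 CPM beside 1740 to 1765 CPM. Fabp5 in KO with rimeporide had a gap of 0.872, with replicate 4 low at 2214 CPM beside 2557 to 2607 CPM. The sum of Fabp3, Fabp4 and Fabp5 in KO with rimeporide had a gap of 0.863, again with replicate 4 low, at 2470 CPM. The share of Fabp4 among carrier tags in WT with rimeporide had a gap of 0.902, with replicate 4 high at 8.05%. The share of Fabp5 in WT with DMSO had a gap of 0.916, with replicate 4 low at 90.4%. All 5 are a replicate 4, and Fabp5 enters each of them, directly or through the carrier sum, so they are not separate signs. Without replicate 4 of KO with rimeporide or of WT with DMSO, Fabp5 still passed in both genotype comparisons. In the edgeR fit with all libraries, the filter and no replicate block, none of 39 members and listed genes passed the interaction test, and the settings under which Fabp3 and Fabp4 passed are given with the processing.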

How the results depend on the processing

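With every alternative run, Fabp4, Fabp5 and Cd36 kept their call in KO against WT in DMSO, with rimeporide and averaged, and Fabp3 kept its averaged call. With the pseudogene score as a covariate, Fabp3 in KO against WT in DMSO was 0.40, Fabp3, Fabp4 and Cd36 in the drug comparison of KO were -0.18, 0.0075 and 0.077, the interaction of Fabp3, Fabp4, Fabp5 and Cd36 was -0.09, -0.19, -0.033 and -0.0067, Fabp3 in the averaged drug comparison was -0.13, and genes passing were 808 in KO against WT in DMSO, 2 and 1 for the drug in WT and KO, 0 for the interaction and 17 for the averaged drug effect. With no filter (40978 genes), the interaction was -0.71 for Fabp3 (adjusted p = 0.0335) and -0.029 for Fabp5, the averaged drug effect -0.011 for Fabp4 and 0.19 for Cd36 (adjusted p = 0.0196), and genes passing were 95 for the drug in WT, 630 for the interaction and 970 for the averaged drug effect. DESeq2 gave 6, 276 and 801 genes for those 3. Same-numbered libraries correlated at -0.0044 to 0.21 in their deviations from the group means, over 0.1 in 8 of 16 pairs, short of the mark of every pair over 0.1, so the numbers were not taken as a pairing. That 11 of the 16 correlated best with their own number is a hint in the data of a shared replicate effect. The labels describe 4 biological replicates per genotype and do not say whether same-numbered libraries share a culture. If they do, the p-values without a block may not measure the right spread. With the number as a replicate block, the interaction was -0.64 for Fabp3 (adjusted p = 0.0258), the averaged drug effect of Cd36 was 0.22 (adjusted p = 0.0051), and 6, 694 and 1321 genes passed in the same 3. With a block within genotype, the interaction was -0.63 for Fabp3 (adjusted p = 0.0395) and -0.38 for Fabp4 (adjusted p = 0.0470), Cd36 was 0.22 (adjusted p = 0.00953), and 8, 690 and 1275 genes passed. Leaving out 1 library at a time gave -0.0052 to 0.073 for Fabp5 and the drug in WT, -0.25 to -0.15 for Fabp4 and 0.26 to 0.38 for Cd36 and the drug in KO, -0.77 to -0.57, -0.45 to -0.33 and -0.0050 to 0.072 for the interaction of Fabp3, Fabp4 and Fabp5, and -0.48 to -0.37, -0.029 to 0.043 and 0.17 to 0.24 for the averaged drug effect of Fabp3, Fabp4 and Cd36. The averaged drug effect of Fabp3, which passed with all libraries (adjusted p = 0.0293), was lost without any 1 of 7 of them, namely WT with DMSO replicate 4, KO with DMSO replicates 1 and 4, WT with rimeporide replicates 2 and 3, and KO with rimeporide replicates 2 and 3. That of Cd36 was gained without WT with DMSO replicate 2 or KO with DMSO replicate 2. Genes passing then ran from 1430 to 3345 in KO against WT in DMSO (lowest without KO with DMSO replicate 1), 0 to 40 for the drug in WT, 643 to 3002 for the drug in KO (lowest without KO with DMSO replicate 4, highest without replicate 2), 0 to 1497 for the interaction and 11 to 1746 for the averaged drug effect. Of the alternatives for single listed genes, list counts, levels and shares, 1796 kept the call or value, 99 list counts moved by over 1.5 times, 14 calls were gained, 1 was lost and 0 reversed. The cause of these changes was not tested. Fabp3, with 3204 counts in all, is the member that depth limits most.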
